A study of Mus musculus with 10 samples.

Results

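Nuclear genes of respiratory complexes II to V were followed in ribosome-bound RNA of dopaminergic neurons from the mouse ventral tegmental area. Members were taken by gene name and a count minimum: the subunit and assembly factor genes of succinate dehydrogenase (complex II), the cytochrome c reductase (complex III) with cytochrome c, the cytochrome c oxidase (complex IV) and the ATP synthase (complex V), without the 3 genes of the ATP synthase c subunit. Of 56691 genes in the table, 70 carried such names, 10 of these were c subunit genes or carried a pseudogene name, and 57 of the other 60 had at least 10 counts in at least 5 of the 10 libraries. The groups were 5 libraries from mice after 30 min of acute restraint and 5 from mice without it. All mice were male wild-type C57BL/6, and in both groups the dopaminergic neurons carried HA-tagged NBL10, through which the ribosome-bound RNA was pulled down. The labels used here give neither age nor the promoter or Cre line behind the tag. They also do not say whether a library is 1 animal, so p-values measure the spread between these libraries, which may be technical.

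The respiratory chain passes electrons from NADH and succinate through complexes I, II and III, cytochrome c and complex IV to oxygen, and pumps protons across the inner mitochondrial membrane. Complex V lets the protons flow back and makes ATP. Complex II is encoded wholly in the nucleus, whereas complexes III, IV and V join nuclear subunits with subunits made in the mitochondrion, and each needs assembly factors that are not part of the finished enzyme. Dopaminergic neurons have long, highly branched axons and autonomous firing, and are known for a high demand for mitochondrial ATP.

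Libraries held 56082358 to 86584968 counts, of which the members made up 1.06 to 1.32% after restraint and 1.22 to 1.46% in controls. Th, the rate-limiting enzyme of dopamine synthesis, was at 477 ± 65.3 CPM after restraint and 411 ± 78.6 CPM in controls (SD, n = 5 each; CPM is each count scaled to library size, with TMM). All 12 dopamine neuron markers were measured. Astrocyte and GABA neuron markers were also abundant. Gfap, an astrocyte filament, was above Th, at 2471 ± 316 CPM after restraint and 1919 ± 121 CPM in controls. Gad1, a GABA neuron marker, was at 533 ± 86.8 CPM after restraint and 549 ± 70.2 CPM in controls. The members' levels therefore cannot be assigned to dopaminergic neurons alone. Restraint library 1 stood apart from the other 9 on the first principal component, at 92.1 against −19.2 to 4.08, and had the fewest genes with a count (20936).

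No member passed the adjusted threshold (edgeR quasi-likelihood test with Benjamini-Hochberg adjustment over 18440 genes, adjusted p under 0.05). Over all genes, 0.0217% were called in that test, 0.0163% lower and 0.00542% higher. The log2 fold change of restraint over control was negative in 50 of the 57 members, against 50.4% of all genes tested, and its median was −0.21, against −0.0022 over all genes. An unadjusted p under 0.05 was reached by 18 members, all with lower means after restraint, against 6.04% of all genes in that direction, and by 0 members with higher means, against 5.64% of all genes. In 4 members, Sdhaf4, Sdhb, Cox7a2l and Atp5l, all restraint libraries lay below all controls, against 1.36% of all genes, and in 0 members all lay above, against 1.25% of all genes. Of the 24 alternatives, 17 called no member, as the main test did. In the others all calls were lower. Members called numbered 1 with library size only (0.0651% of all genes called lower), 8 with every gene of at least 1 count tested (0.612%) and 7 with DESeq2 (1.00%). They numbered 3 with limma-voom and quality weights (0.358%) and 3 with the length trend removed (0.309%). Leaving out control library 5 gave 1 (16 of 18800 genes called lower), and leaving out restraint library 5 gave 4 (0.443%). On simulated counts DESeq2 made more false calls than its threshold allows. The 1-count filter and the quality weights were not tried on such counts. Genes are not independent replicates, and these counts describe the members without testing them as a list. Fewer cells of a type and less RNA per cell cannot be told apart in such libraries.

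The members' level varied among the restraint libraries. The median log2 deviation of the members from their control means was −0.41, −0.02, −0.25, −0.44 and −0.01 in restraint libraries 1 to 5, against −0.03, −0.12, 0.20, 0.03 and −0.04 in control libraries 1 to 5. Restraint libraries 1, 3 and 4 were low, while restraint libraries 2 and 5 lay within the range of the controls. Without restraint library 1 the median log2 fold change was −0.12, and without restraint library 5 it was −0.32. Members with an unadjusted p under 0.05 and a lower mean numbered 11 without control library 3, 13 without restraint library 1 and 27 without restraint library 5.

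**Figure D1:**
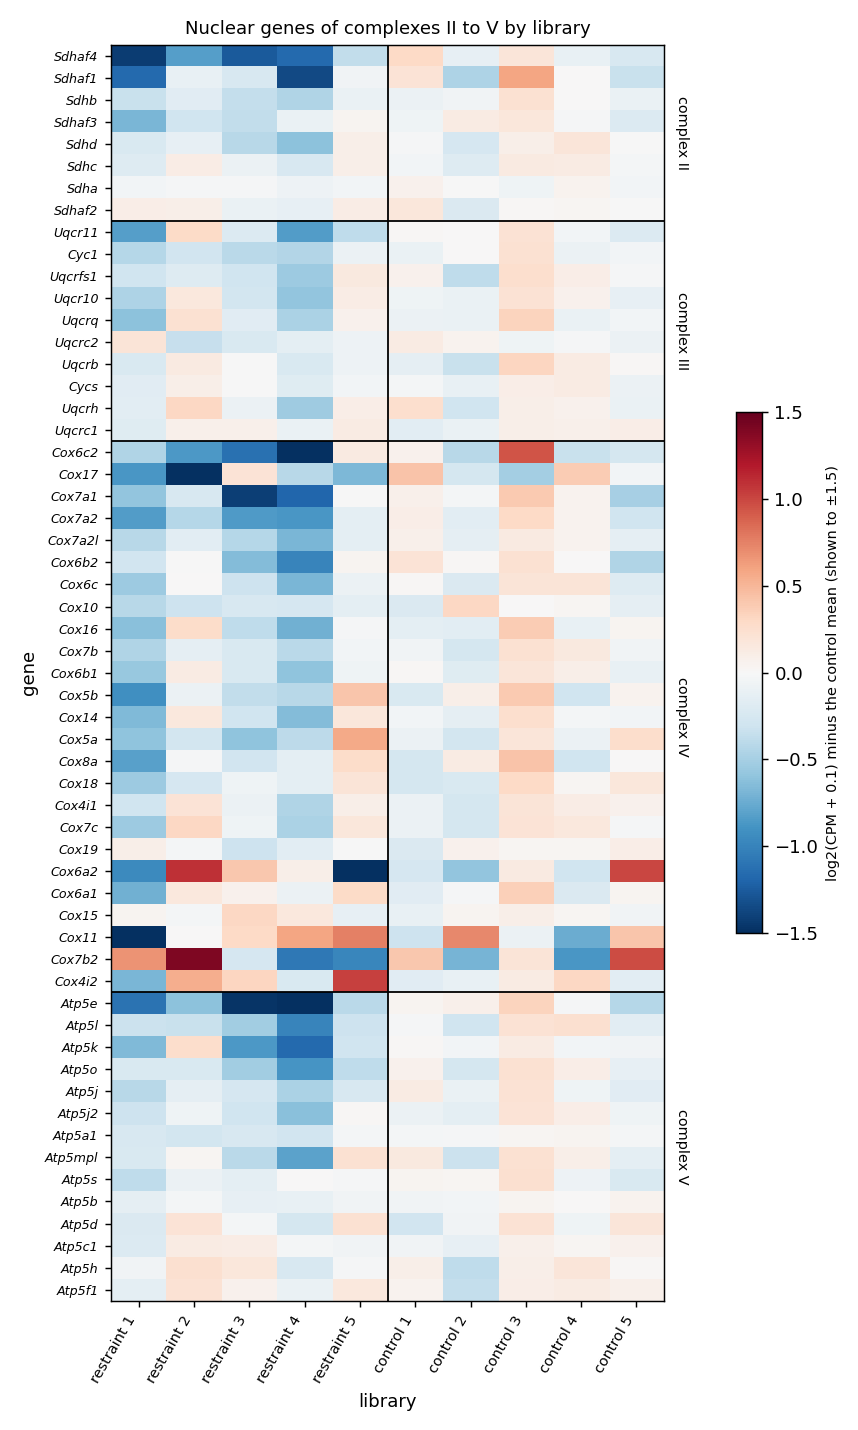
Each row is a member and each column a library, restraint on the left and control on the right, with colour giving log2(CPM + 0.1) minus the mean of the 5 controls. Blue prevails in restraint libraries 1, 3 and 4, whose medians were −0.41, −0.25 and −0.44, and not in restraint libraries 2 and 5, at −0.02 and −0.01.

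Marker lists of the cell types in the tissue also varied between libraries. The summed level of the 12 dopamine neuron markers ran from 2187 to 3033 CPM after restraint and from 1964 to 2689 CPM in controls, 10 of the 12 had a positive log2 fold change, and 6 had an unadjusted p under 0.05 with a higher mean after restraint, the smallest adjusted p being 0.0662 in En1, a transcription factor of these neurons. The 8 astrocyte markers summed to 4291 to 5361 CPM after restraint and 3769 to 4366 CPM in controls, with 5 of 8 positive and 1, Gfap, at an unadjusted p under 0.05 (0.37; adjusted p = 0.118). Oligodendrocyte markers summed to 1571 to 2137 CPM after restraint and 1655 to 2005 CPM in controls, microglial markers to 22.3 to 30.4 CPM after restraint and 22.3 to 35.0 CPM in controls, and vascular markers to 16.4 to 24.6 CPM after restraint and 12.8 to 19.0 CPM in controls. GABA neuron markers summed to 1345 to 1692 CPM after restraint and 1166 to 1548 CPM in controls, and glutamate neuron markers to 358 to 486 CPM after restraint and 414 to 446 CPM in controls. Positive values were found in 5 of 8 oligodendrocyte, 4 of 8 microglial, 7 of 8 vascular, 4 of 7 GABA neuron and 2 of 4 glutamate neuron markers. An unadjusted p under 0.05 with a higher mean after restraint was reached by 2 oligodendrocyte and 3 vascular markers, and by no marker of any of these lists with a lower mean. Over all genes tested, such a p was reached by 5.64% with a higher and 6.04% with a lower mean. No marker of these lists was at 0, and their part in the members' values was not tested.

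The sequences before the start of these genes are shown because nuclear respiratory genes are known for promoters read by NRF1, GABPA and YY1. Windows of 250 bases before to 50 bases after the start were found by symbol for 41 of the 57 members in RefSeq (GRCm38.p6) and searched on both strands. The core of the NRF1 motif, CGCATGCGC, was in 6 of the 41 and in 1.95% of 27025 genes with a window. The ETS motif CCGGAAG, which GABPA reads, was in 19 of the 41 and in 9.93% of all. The YY1 motif AAGATGGCG was in 3 of the 41 and in 1.64% of all, and its first bases can overlap the end of the ETS motif. The median log2 fold change was −0.20 for members with the NRF1 motif and −0.24 for the others, −0.26 with the ETS motif and −0.19 without it, and −0.29 with the YY1 motif and −0.22 without it. The 27025 genes were not held to a count minimum as the members were, so the motif shares compare unlike sets. A match of letters describes the window and does not show binding. Stretches from 6 members follow, 5′ to 3′ on the gene's strand, with capitals for motif letters of either strand that lie before the start. Matches that reach or lie past the start are not shown. These are the NRF1 match of Uqcr11, the ETS match of Atp5k and 1 of the 2 ETS matches of Atp5l. The 6 were picked by hand among members with a match. Atp5e, Atp5l, Atp5k and Uqcr11 have low log2 fold changes, and Atp5j holds both an ETS and a YY1 motif. Cox6a1 has a log2 fold change near 0 and 3 matches, 2 of them NRF1 letters that overlap on opposite strands as in Atp5k. Sdhaf4, Cox7a2, Atp5o and Cox7a2l also have low log2 fold changes (−0.98, −0.61, −0.44 and −0.36), and their windows hold none of these motifs.
Atp5e, chr2:174464151-174464250, minus strand: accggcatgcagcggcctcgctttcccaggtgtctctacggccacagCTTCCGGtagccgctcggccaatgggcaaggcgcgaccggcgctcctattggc
Atp5l, chr9:44920916-44920992, minus strand: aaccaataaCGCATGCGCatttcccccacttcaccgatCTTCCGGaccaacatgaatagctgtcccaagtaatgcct
Atp5k, chr5:108434400-108434499, minus strand: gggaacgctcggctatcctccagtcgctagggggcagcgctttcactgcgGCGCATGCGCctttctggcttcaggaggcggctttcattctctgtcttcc
Uqcr11, chr10:80406835-80406934, minus strand: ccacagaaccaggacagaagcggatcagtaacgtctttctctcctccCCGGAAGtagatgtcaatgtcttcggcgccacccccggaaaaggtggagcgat
Cox6a1, chr5:115348968-115349120, minus strand: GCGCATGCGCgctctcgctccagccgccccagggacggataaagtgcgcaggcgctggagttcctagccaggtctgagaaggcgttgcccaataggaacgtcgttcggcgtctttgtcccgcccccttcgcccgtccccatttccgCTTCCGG
Atp5j, chr16:84834998-84835097, minus strand: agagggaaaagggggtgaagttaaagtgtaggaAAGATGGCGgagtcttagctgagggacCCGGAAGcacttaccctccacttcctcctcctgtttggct

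Complex II oxidises succinate and is the one respiratory complex that is also an enzyme of the citric acid cycle. Of its 8 genes, 7 had a negative log2 fold change, with a median of −0.26. An unadjusted p under 0.05 with a lower mean was reached by 4, against 6.04% of all genes. The summed level of the 8 was 1291 ± 72.9 CPM after restraint and 1393 ± 54.8 CPM in controls (SD, n = 5 each), a ratio of 0.926. Gene positions below are those of the deposited table, in GRCm39. The largest difference was in an assembly factor. Sdhaf4 (chr1:24035020-24044737, minus strand), which binds the flavoprotein subunit Sdha before it joins its partner, had 7.44, 11.4, 8.35, 8.93 and 15.7 CPM in restraint libraries 1 to 5, against 24.8, 18.6, 22.9, 18.6 and 17.1 CPM in control libraries 1 to 5. Every restraint library lay below every control. Its log2 fold change was −0.98 ± 0.18 (SE; adjusted p = 0.0611), the smallest adjusted p among the members. Sdhb (chr4:140688514-140706504, plus strand), the iron-sulfur subunit, had 157, 176, 154, 145 and 185 CPM in restraint libraries 1 to 5, against 186, 191, 233, 199 and 186 CPM in control libraries 1 to 5. Its groups did not overlap either, although the highest restraint library came close to the lowest controls. The log2 fold change of Sdhb was −0.28 ± 0.09 (SE; adjusted p = 0.205). Sdhaf2, which helps attach the flavin to Sdha, had the only positive log2 fold change of the complex, with 68.2, 67.3, 59.5, 58.5 and 68.9 CPM in restraint libraries 1 to 5, against 71.6, 54.9, 64.5, 64.8 and 63.4 CPM in control libraries 1 to 5. These groups overlapped throughout, and the log2 fold change was 0.02 ± 0.09 (SE; adjusted p = 0.972).

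The other complex II genes lay between these. Sdhaf3, an assembly factor that protects the iron-sulfur subunit, averaged 20.4 ± 3.82 CPM after restraint and 24.6 ± 2.61 CPM in controls, with a log2 fold change of −0.27 ± 0.12 (SE; adjusted p = 0.416). Sdhd, a membrane anchor, averaged 134 ± 24.8 CPM after restraint and 158 ± 17.1 CPM in controls, with −0.25 ± 0.12 (SE; adjusted p = 0.419). Sdhc, the other anchor, and Sdha, the catalytic flavoprotein, had log2 fold changes of −0.06 and −0.04. Sdhaf1, which brings iron-sulfur clusters to Sdhb, averaged 1.79 ± 0.725 CPM after restraint and 2.65 ± 0.831 CPM in controls, and 69.6% of its exon bases overlap another gene, E130208F15Rik, so its counts are uncertain. Per exon length, Sdha was the highest of the complex at 178 ± 3.03 RPKM after restraint and 183 ± 7.22 RPKM in controls, and Sdhaf1 the lowest at 0.720 ± 0.291 RPKM after restraint and 1.06 ± 0.334 RPKM in controls (RPKM is CPM per kilobase of exon).

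Complex III moves electrons from ubiquinol to cytochrome c. All 9 subunit genes and Cycs had a negative log2 fold change, with a median of −0.14 over the 10. An unadjusted p under 0.05 with a lower mean was reached by 1, against 6.04% of all genes. The summed level was 2100.2 ± 260.5 CPM after restraint and 2296 ± 173 CPM in controls. Cyc1 (chr15:76227723-76230460, plus strand), the haem subunit that hands electrons to cytochrome c, had 159.6, 176, 163, 159 and 203 CPM in restraint libraries 1 to 5, against 201, 216, 252, 202 and 209.7 CPM in control libraries 1 to 5. Restraint library 5 alone reached into the range of the controls. The log2 fold change of Cyc1 was −0.33 ± 0.09 (SE; adjusted p = 0.162). Uqcr11 (chr10:80238831-80242664, minus strand), a small accessory subunit, had 84.3, 183, 129, 83.7 and 115 CPM in restraint libraries 1 to 5, against 151, 149.9, 174, 146 and 130.1 CPM in control libraries 1 to 5. Restraint library 2 was the highest of all 10, and restraint libraries 1 and 4 were the lowest. Its log2 fold change was −0.33 ± 0.17 (SE; adjusted p = 0.459).

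The other complex III genes had smaller differences. Uqcrfs1, the Rieske iron-sulfur protein, averaged 179 ± 32.2 CPM after restraint and 211 ± 32.4 CPM in controls, with a log2 fold change of −0.24. The small subunits Uqcr10, Uqcrq, Uqcrb and Uqcrh had −0.19, −0.17, −0.09 and −0.06. Of the core proteins, Uqcrc2 had −0.11 and Uqcrc1 −0.00 ± 0.08 (SE; adjusted p = 0.997), the value nearest 0. Cycs, cytochrome c itself, averaged 247 ± 20.05 CPM after restraint and 258 ± 19.7 CPM in controls, with −0.06 ± 0.08 (SE; adjusted p = 0.823). Per exon length Uqcr10 was the highest, at 280 ± 65.3 RPKM after restraint and 318 ± 32.0 RPKM in controls. Cycs was the lowest in controls, at 72.6 ± 5.89 RPKM after restraint and 75.9 ± 5.78 RPKM in controls. After restraint the lowest was Uqcrc2, at 71.6 ± 10.4 RPKM, against 77.4 ± 4.66 RPKM in controls. The ranges of mean ± SD of Cycs and Uqcrc2 overlapped in each group. Of the 100-base stretches of Cycs, 22.6% also occur in other genes, so its counts are uncertain. Exon length takes in all annotated exons, which is 3404 bases in Cycs for a coding length of 315, so such rankings depend on the annotation.

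**Figure D2:**
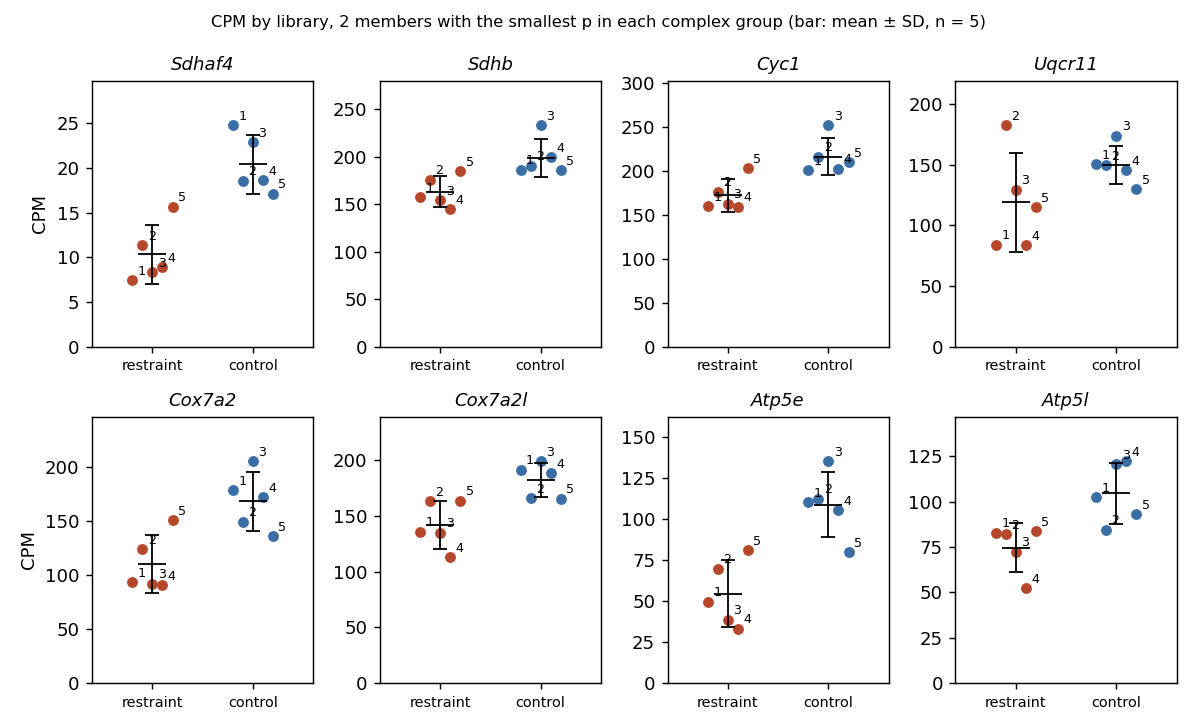
Points are TMM-normalized CPM of single libraries, restraint left and control right, for the 2 members with the smallest p in each complex group, with the mean ± SD (n = 5 each). The groups do not overlap in Sdhaf4, Sdhb, Cox7a2l and Atp5l.

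Complex IV passes the electrons to oxygen, and several of its subunits exist in tissue-specific forms. Of its 25 genes, 21 had a negative log2 fold change, with a median of −0.22. The median was −0.12 without restraint library 1 and −0.14 without control library 3. An unadjusted p under 0.05 with a lower mean was reached by 6, against 6.04% of all genes. The sum of the 25 was 3088 ± 612 CPM after restraint and 3543 ± 379 CPM in controls. Cox7a2 (chr9:79662643-79667160, minus strand), the widely expressed form of subunit 7a, had 93.3, 124, 91.8, 90.3 and 150.3 CPM in restraint libraries 1 to 5, against 178, 149, 205, 172 and 135 CPM in control libraries 1 to 5. Restraint library 5 overlapped the controls and the other 4 lay below all of them. Its log2 fold change was −0.61 ± 0.14 (SE; adjusted p = 0.116). Cox7a2l (chr17:83809347-83824759, minus strand), a relative of that subunit that links complexes III and IV in supercomplexes, had 136, 163, 135, 113 and 164 CPM in restraint libraries 1 to 5, against 192, 166, 199, 189 and 166 CPM in control libraries 1 to 5. All restraint libraries lay below the lowest control, by little in libraries 2 and 5. The log2 fold change of Cox7a2l was −0.36 ± 0.10 (SE; adjusted p = 0.174).

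The widely expressed forms far outnumbered the alternative forms in both groups. Cox7a1, the heart and muscle form of subunit 7a, had 3.35, 4.31, 1.86, 2.18 and 5.07 CPM in restraint libraries 1 to 5, against 5.37, 5.01, 6.71, 5.30 and 3.59 CPM in control libraries 1 to 5. It made up 4.98 ± 1.14% of the Cox7a1 and Cox7a2 level per exon length after restraint and 5.15 ± 0.442% in controls. Its log2 fold change was −0.63 ± 0.25 (SE; adjusted p = 0.326), close to that of Cox7a2. Cox4i2, the form of subunit 4 known for lung and low oxygen, had 0.433, 1.146, 0.964, 0.626 and 1.63 CPM in restraint libraries 1 to 5, against 0.658, 0.692, 0.833, 0.962 and 0.662 CPM in control libraries 1 to 5. It had the largest positive log2 fold change of the complex, 0.34 ± 0.36 (SE; adjusted p = 0.788), and its groups overlapped. Cox4i1, the common form, had 571, 814, 661, 514 and 747 CPM in restraint libraries 1 to 5, against 661, 587, 804, 759 and 734 CPM in control libraries 1 to 5. The Cox4i2 share of the pair was 0.276 ± 0.101% after restraint and 0.211 ± 0.0286% in controls.

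Subunits 6a, 6b and 7b also come in pairs. Cox6a1, the common form of 6a, had 226, 414, 388, 349 and 454 CPM in restraint libraries 1 to 5, against 330.2, 368, 477, 320.2 and 383 CPM in control libraries 1 to 5. Cox6a2, the heart and muscle form, had 1.33, 5.83, 3.57, 2.83 and 0.443 CPM in restraint libraries 1 to 5, against 2.22, 1.73, 2.95, 2.16 and 5.43 CPM in control libraries 1 to 5, with the highest and the lowest of all 10 values both after restraint. Their log2 fold changes were −0.04 and −0.05. Cox6b1 had 223, 359.9, 283, 217 and 317 CPM in restraint libraries 1 to 5, against 336, 291, 377, 351 and 306 CPM in control libraries 1 to 5. Its testis form Cox6b2 had 10.01, 12.2, 7.79, 6.12 and 12.6 CPM in restraint libraries 1 to 5, against 14.2, 12.4, 14.3, 12.3 and 8.93 CPM in control libraries 1 to 5. Both had lower means after restraint, with log2 fold changes of −0.25 and −0.35, and the share of Cox6b2 was 2.18 ± 0.458% after restraint and 2.34 ± 0.342% in controls. Cox7b had 173, 215, 201, 178 and 229 CPM in restraint libraries 1 to 5, against 227, 197, 276, 262 and 228 CPM in control libraries 1 to 5. Its log2 fold change was −0.26 ± 0.10 (SE; adjusted p = 0.321), with restraint libraries 2, 3 and 5 inside the range of the controls. Cox7b2, a testis form, was near the limit of the counts, with 0.433, 0.784, 0.182, 0.0597 and 0.0700 CPM in restraint libraries 1 to 5, against 0.345, 0.106, 0.283, 0.0824 and 0.557 CPM in control libraries 1 to 5.

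Of the remaining subunits, Cox6c had a log2 fold change of −0.31 ± 0.13 (SE; adjusted p = 0.332), and Cox5b, Cox5a, Cox8a and Cox7c had −0.23, −0.20, −0.18 and −0.09. Cox6c2, which GENCODE M21 lists as a processed pseudogene, averaged 0.183 ± 0.140 CPM after restraint and 0.386 ± 0.223 CPM in controls, and 34.9% of its 100-base stretches also occur in Cox6c. Of the 8 assembly factors, 6 had a negative value and 1, Cox10, an unadjusted p under 0.05. Cox10, which makes the haem precursor of the enzyme, averaged 16.1 ± 1.08 CPM after restraint and 19.6 ± 2.82 CPM in controls, with −0.29 ± 0.11 (SE; adjusted p = 0.293). Cox15, which finishes that haem, had 0.08. Of the copper factors, Cox17 averaged 1.02 ± 0.524 CPM after restraint and 1.62 ± 0.472 CPM in controls. Its log2 fold change was −0.66 ± 0.35 (SE; adjusted p = 0.490), at this low level. Cox19 had −0.08. Cox11, at 2.35 ± 1.11 CPM after restraint and 2.16 ± 0.897 CPM in controls, had 0.13 ± 0.36 (SE; adjusted p = 0.939). Of the exon bases of Cox11, 48.4% overlap Tom1l1. Cox14, Cox16 and Cox18, needed to insert or stabilise the core subunits, had −0.22, −0.26 and −0.16, with 56.8% of Cox16 exon bases shared with Gm20498. Per exon length Cox6a1 led the complex at 522 ± 124 RPKM after restraint and 535 ± 88.9 RPKM in controls. Next in the order of the controls came Cox8a at 416 ± 109.7 RPKM after restraint and 472 ± 102 RPKM in controls, Cox6b1 at 395 ± 86.3 RPKM after restraint and 469 ± 48.5 RPKM in controls, and Cox4i1 at 427 ± 79.3 RPKM after restraint and 457 ± 55.2 RPKM in controls, and the ranges of mean ± SD of these 4 overlapped in each group. Cox8b, the muscle form of subunit 8, stayed under the minimum with 0, 0, 0, 4 and 20 counts after restraint and 10, 24, 8, 10 and 8 in controls.

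**Figure D3:**
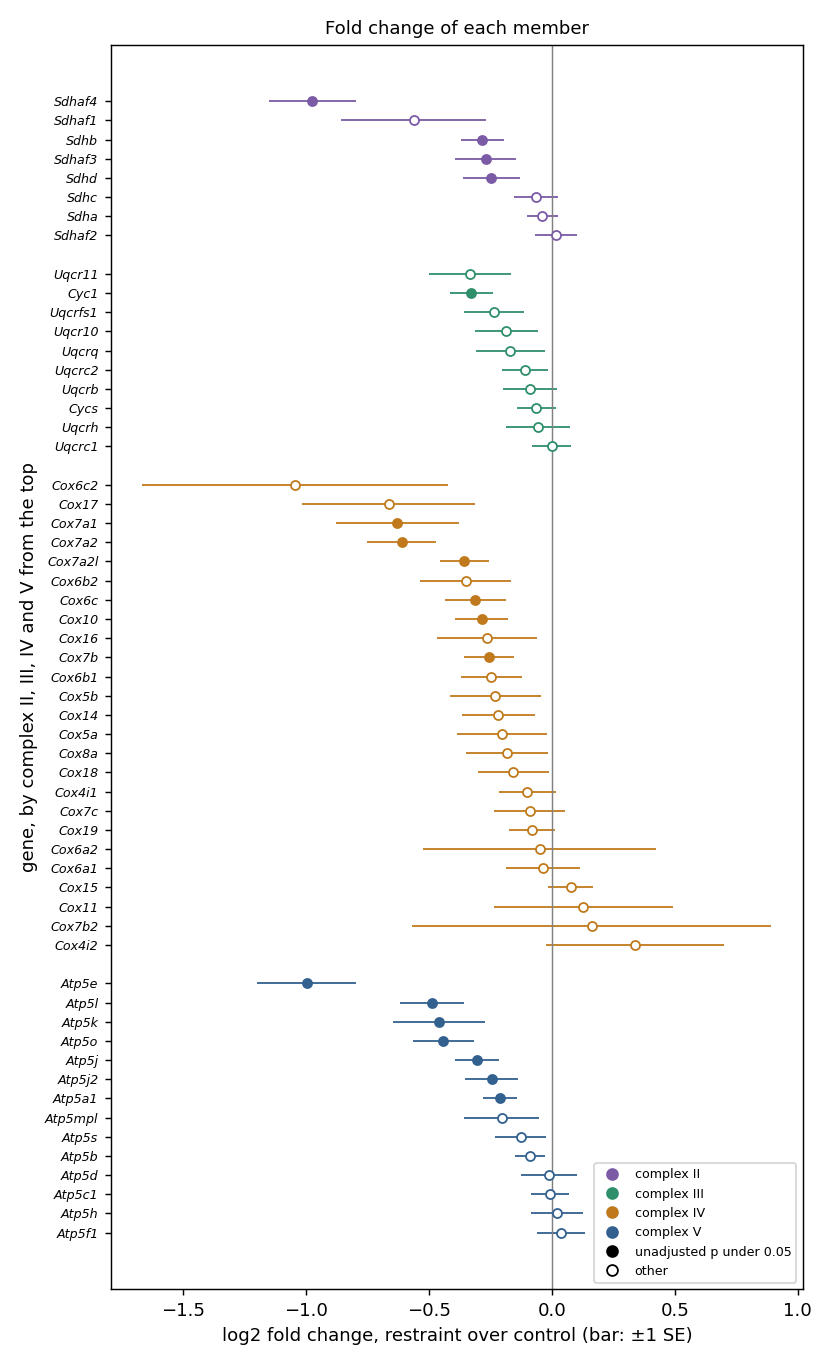
Points are log2 fold changes of restraint over control with bars of 1 SE (edgeR, 5 libraries each), by complex and sorted within it. Filled points have an unadjusted p under 0.05; 50 of 57 points lie left of 0.

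Complex V turns proton flow into ATP in a catalytic head held by a peripheral stalk on a membrane part. Of its 14 genes, 12 had a negative log2 fold change, with a median of −0.21. An unadjusted p under 0.05 with a lower mean was reached by 7, against 6.04% of all genes. The sum of the 14 was 5411 ± 396 CPM after restraint and 5929.7 ± 302 CPM in controls. Within the head the subunits differed. Atp5e (chr2:174302865-174305898, minus strand), the small epsilon subunit of the central stalk, had 49.6, 69.7, 38.6, 33.1 and 81.1 CPM in restraint libraries 1 to 5, against 110.3, 113, 135, 106 and 79.7 CPM in control libraries 1 to 5. Restraint library 5 just exceeded control library 5, and the other 4 restraint libraries lay below all controls. Its log2 fold change was −0.997 ± 0.20 (SE; adjusted p = 0.075). Atp5a1, the alpha subunit, averaged 1308 ± 102 CPM after restraint and 1515 ± 37.1 CPM in controls, with −0.21 ± 0.07 (SE; adjusted p = 0.219). Atp5b, the catalytic beta subunit, had −0.09 ± 0.06 (SE; adjusted p = 0.613), and the gamma and delta subunits Atp5c1 and Atp5d had −0.01 and −0.01.

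The membrane subunits had the lowest median of the roles in this complex, −0.35, with a negative value in all 4. Atp5l (chr9:44823855-44832040, minus strand), subunit g, had 83.02, 82.1, 72.3, 52.2 and 83.6 CPM in restraint libraries 1 to 5, against 103, 84.5, 121, 122 and 93.1 CPM in control libraries 1 to 5. The groups did not overlap, and the log2 fold change was −0.49 ± 0.13 (SE; adjusted p = 0.162). Atp5k, subunit e, which with subunit g helps pair the enzymes into dimers, averaged 52.4 ± 21.3 CPM after restraint and 72.1 ± 3.77 CPM in controls, with −0.46 ± 0.19 (SE; adjusted p = 0.339). Atp5j2, subunit f, and Atp5mpl, a small proteolipid, had −0.25 and −0.21. In the peripheral stalk, Atp5o, which joins the stalk to the head, averaged 40.6 ± 7.14 CPM after restraint and 55.2 ± 7.31 CPM in controls, with −0.44 ± 0.12 (SE; adjusted p = 0.174), and 47.9% of its exon bases overlap other annotated genes. Atp5j, a coupling factor of the stalk, averaged 207 ± 19.5 CPM after restraint and 255 ± 28.9 CPM in controls, with −0.30 ± 0.09 (SE; adjusted p = 0.191), and 12.7% of its exon bases overlap Gabpa. Atp5f1, subunit b, had 479.6, 619, 558, 497 and 593 CPM in restraint libraries 1 to 5, against 552, 415, 572, 578 and 562 CPM in control libraries 1 to 5. Control library 2 was the lowest of the 10, and the log2 fold change was 0.04 ± 0.10 (SE; adjusted p = 0.936), the largest positive one of the complex. Atp5h, subunit d, had 0.02, and Atp5s, a coupling protein outside the enzyme, had −0.13. Per exon length Atp5a1 led at 417 ± 32.6 RPKM after restraint and 483 ± 11.8 RPKM in controls.

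**Figure D4:**
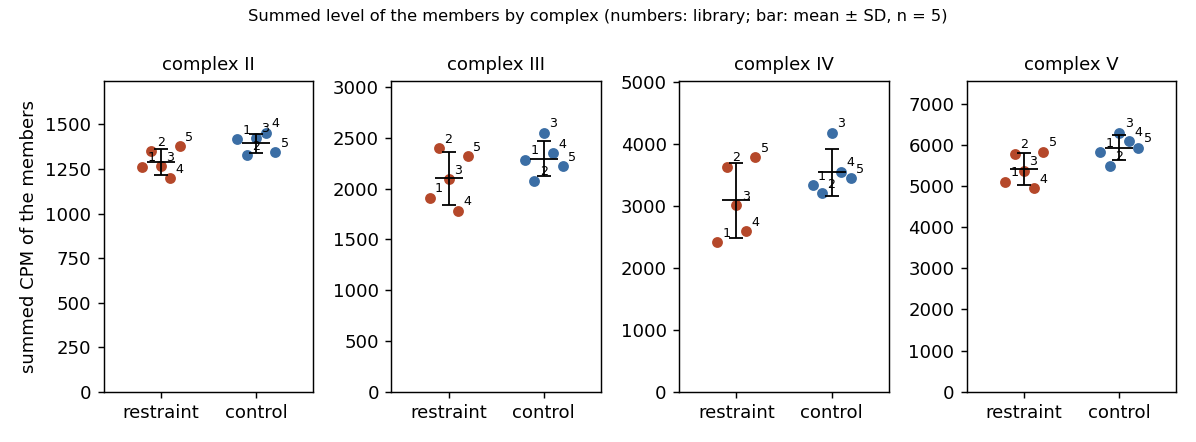
Points are the summed CPM of the members of each complex in single libraries, restraint left and control right, with the mean ± SD (n = 5 each) and axes from 0. Restraint libraries 1 and 4 are low in each complex, and the ratio of the means runs from 0.872 in complex IV to 0.926 in complex II.

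The members are short genes, with a median exon length of 1908 bases against 3879 over all genes tested. Of the 56 with a coding length, the 33 under 450 bases had a median log2 fold change of −0.25 and a negative value in 32, and the 23 longer ones a median of −0.09 and a negative value in 17. That split was made among the members only, so it does not show how other genes of such coding lengths differed. Across members the Spearman rho of log2 fold change was 0.382 on coding length, 0.123 on exon length and 0.294 on mean CPM, as a description over genes of the same libraries. Libraries differed in how level depended on exon length. The slope of log2 CPM per doubling of exon length was 0.0657, −0.0674, 0.0109, 0.0956 and −0.0451 in restraint libraries 1 to 5, against −0.00193, 0.0666, −0.0693, −0.0268 and −0.0281 in control libraries 1 to 5. The libraries with the lowest members, restraint 1 and 4, had steep positive slopes, and control library 2 had one too. With each library's trend on exon length removed, the median of the members was −0.16 and 43 of 57 were negative. A trend on coding length was not removed. In that fit Atp5e, Cox7a2 and Sdhaf4 passed the threshold, against 0.309% of all genes called lower.

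**Figure D5:**
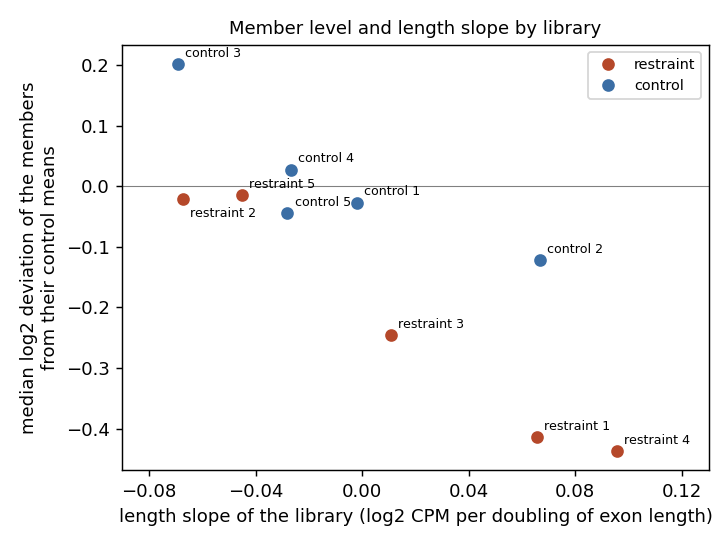
Each point is a library, with its slope of log2 CPM on exon length (per doubling) on the x axis and the median log2 deviation of the members from their control means on the y axis. Restraint libraries 1 and 4 combine slopes of 0.0657 and 0.0956 with medians of −0.41 and −0.44, and control library 2 has a slope of 0.0666 and a median of −0.12.

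Genes that work with the members were followed as further lists. A list of 35 names held other genes of complexes II to V, mostly assembly factors, with Apopt1 and Coa8 as names of 1 gene and with Ndufa4, a complex IV subunit. Of these, 31 were tested, 20 had a negative log2 fold change, and the median was −0.05. In 6 of them, Uqcc2 (−0.53), Pet100 (−0.52), Fmc1 (−0.50), Higd1a (−0.35), Coa6 (−0.34) and Tmem70 (−0.23), the unadjusted p was under 0.05 with a lower mean after restraint, and in 1, Taco1 (0.33), with a higher mean. The shares over all genes tested were 6.04% lower and 5.64% higher. All 7 genes of a list of ADP/ATP and phosphate carriers, outer membrane pores and mitochondrial creatine kinase had a negative value, with a median of −0.16. Slc25a5, an ADP/ATP carrier, averaged 193 ± 8.25 CPM after restraint and 263 ± 41.4 CPM in controls, with −0.44 ± 0.10 (SE; adjusted p = 0.0869). Slc25a3, the phosphate carrier, had −0.43 ± 0.11 (SE; adjusted p = 0.144), and Vdac3, a pore of the outer membrane, −0.20.

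Of 17 regulators of mitochondrial genes, 12 had a positive log2 fold change, and the median was 0.06. Ppargc1a, the coactivator of mitochondrial biogenesis, had 0.06, Nrf1 0.06, Gabpa −0.06, Esrra −0.13 and Tfam, which packages mitochondrial DNA, 0.04. An unadjusted p under 0.05 was reached by Tfb2m (0.34), Creb1 (0.19) and Yy1 (−0.22), none of which passed the adjusted threshold. The shares over all genes tested were 5.64% higher and 6.04% lower. Of 6 subunit genes of complexes III to V on the mitochondrial genome, 5 were tested, 3 had a negative log2 fold change with a median of −0.14 over the 5, and none reached an unadjusted p under 0.05. The positive values were those of mt-Co1 (0.17) and mt-Cytb (0.04), which made up nearly all of the summed level, and mt-Co2, mt-Co3 and mt-Atp6 had −0.14, −0.33 and −0.32 at 1.68 to 3.12 CPM after restraint and 2.10 to 3.44 CPM in controls. The summed level was 1096 ± 123 CPM after restraint and 1009.6 ± 69.5 CPM in controls. These subunits are made in the mitochondrion, so how their RNA came into the pulled-down RNA is not known. Their values are therefore not like those of the nuclear members. Why mt-Co1, at 724 ± 106 CPM after restraint and 646 ± 52.2 CPM in controls, lay so far above mt-Co2, mt-Co3 and mt-Atp6 was not tested.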

How the data were processed

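The authors deposited 1 table of whole-number read counts per gene for the 10 libraries. It came from featureCounts 2.0.3 over GENCODE M30 exons, per the file headers. No option for strand, read pairs or reads with several alignments was recorded there. Without such options, mates of a pair would count separately, antisense with sense reads, and multi-mapping reads not at all. Counts of scarce genes were mostly even, as in Cox8b, Cox4i2, Cox6c2 and Cox7b2, which mates counted separately would give. A count of 10 may then stand for fewer fragments. With all counts halved, 55 members were tested, 0 were called, and their median log2 fold change was −0.21. Whether the reads were paired or stranded was not checked further. FastQC, Trimmomatic and STAR are listed by the submitters' processing notes without versions. Those notes name mm10, although M30 annotates GRCm39: 93.9% of 52071 matched genes start over 10000 bases from their GENCODE M21 position. Exon lengths were deposited in that table too. Symbols came from GENCODE M21.

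Genes were filtered with filterByExpr (count minimum 10, total minimum 15), scaled by TMM and tested with edgeR 4.0.16 (glmQLFit and glmQLFTest) in R 4.3.3, with group as the only term and Benjamini-Hochberg adjustment over 18440 genes (threshold 0.05). The SE is the absolute log2 fold change over the root of F. Python 3.11.15 was used for the other steps. Alternatives used limma 3.58.1, DESeq2 1.42.0 and sva 3.50.0, other scalings and filters, and a length correction. Further ones took halved counts, the replicate number as a block, the table without the mitochondrial genome, and each library left out. Only edgeR with the main settings, limma-voom without quality weights, the length correction and DESeq2 were tried on simulated counts. There edgeR and limma kept false calls near the threshold and DESeq2 exceeded it, so DESeq2 calls carry that limit. The 1-count filter and the quality weights were not tried, so their false calls are not known. The simulated counts were drawn gene by gene with dispersions from edgeR, and no library stood apart as restraint library 1 did. False calls in the real libraries may therefore differ. The NRF1 letters were shortened after a looser form had been searched. Values by library are given for the 2 members with the smallest p and the largest positive log2 fold change in each complex group, and for the complex IV isoform pairs. The members and lists were chosen with earlier results of these data known.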

Additional observations from a re-analysis of the deposited data

Results flagged for a closer look

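A library stood apart from the other 4 of its group (gap over range above 0.71, the Dixon limit for 5 values) in 8 of 122 groups tested, and chance gives about 1 in 20. After restraint these were Cox5a in library 5, at 161 CPM against 71.9 to 90.1 CPM in the others, and Atp5a1 in library 5, at 1489 against 1246 to 1278 CPM. In controls, library 3 was high for Sdhb (233.3 against 185.9 to 199.5 CPM), Uqcrq (208.8 against 154.5 to 160.9 CPM), Cox14 (110.9 against 84.4 to 91.4 CPM) and Cox6c2 (0.774 against 0.239 to 0.376 CPM). Control library 1 was low for Cox19, at 35.96 against 42.4 to 44.7 CPM, and control library 2 was low for Atp5f1, at 415 against 551.5 to 577.9 CPM.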

How the results depend on the processing

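Up to 24 alternatives were run per member, fewer for Cox4i2 (23), Cox6c2 (22) and Cox7b2 (22), which the low-count filter removed from the others. In those run, 42 of the 57 members kept the direction of their log2 fold change and 15 reversed in at least 1. The medians of the members and of each complex stayed negative but moved by over 1.5 times in some: with 1 surrogate variable to −0.12 (members), −0.09 (complex III) and −0.12 (complex IV), with the length trend removed to −0.09 (complex III), and without restraint library 1 to −0.12 (members and complex IV), without control library 3 to −0.14 (complex IV) and without restraint library 5 to −0.32 (members). No alternative called a member higher, and 17 of the 24 called none lower. Members called lower numbered 1 with library size only (Sdhaf4), 8 when every gene with at least 1 count was tested (Atp5e, Atp5k, Atp5l, Atp5o, Cox7a2, Cox7a2l, Cyc1 and Sdhaf4; 0.612% of 32529 genes), 7 with DESeq2 (the same without Atp5k; 1.00% of all), and 3 each with quality weights and with the length trend removed (Atp5e, Cox7a2 and Sdhaf4; 0.358% and 0.309% of all). Leaving out 1 library gave 0 to 4 called (4 without restraint library 5; 0.443% of all) and 11 to 27 with an unadjusted p under 0.05.

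Over all genes, higher and lower calls numbered 5 and 12 with library size only, 103 and 199 with the 1-count filter, 117 and 185 with DESeq2, 21 and 66 with quality weights, 27 and 57 with the length trend removed, and 0 and 0 with robust estimation and 1 surrogate variable, against 1 and 3; leaving out 1 library gave 0 to 9 higher and 0 to 83 lower. With the replicate number as a block the counts were 0 and 0, and 16 members had an unadjusted p under 0.05. The labels do not say what a number shares, and only libraries numbered 1 deviated together (r = 0.262; the others −0.445 to −0.098), so the numbers were not taken as pairs. The cause was not tested.

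Reversed log2 fold changes were as follows. With limma-voom with quality weights they were Sdhaf2 −0.0254, Cox6a1 0.00210, Cox7b2 −0.30 and Atp5h −0.0158. With the length trend removed they were Uqcr10 0.00996, Uqcrb 0.0661, Uqcrh 0.0165, Cox6a1 0.13, Cox8a 0.0114, Atp5c1 0.0172 and Atp5d 0.0118. With 1 surrogate variable they were Uqcrc1 0.0402, Cox6a1 0.0931, Cox6a2 0.0680, Cox7b2 −0.0423, Cox7c 0.00918, Atp5c1 0.0336 and Atp5d 0.0419. With limma-voom it was Cox7b2 −0.14. With the replicate block it was Cox7b2 −0.16. Leaving out 1 library, the ranges were Sdhaf2 −0.0289 to 0.0652, Uqcrb −0.16 to 0.00392, Uqcrc1 −0.0389 to 0.0449, Uqcrh −0.17 to 0.0484, Cox11 −0.0661 to 0.37, Cox6a1 −0.13 to 0.0997, Cox6a2 −0.52 to 0.29, Cox7b2 −0.56 to 0.57, Cox7c −0.21 to 0.00922, Atp5c1 −0.0460 to 0.0444, Atp5d −0.0805 to 0.0530, Atp5f1 −0.0380 to 0.0861 and Atp5h −0.0587 to 0.0839.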
